A study of Mus musculus with 17 samples.

Results

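AB12 tumors are grown from a murine mesothelioma cell line, and the genes described here are the 50 protein coding genes of Gencode vM21 that encode matrix metalloproteinases, ADAMTS proteases, ADAMTS-like proteins or their tissue inhibitors. They were chosen by symbol alone among the 55450 genes of the count table, as 22 Mmp genes, 19 Adamts genes, 5 Adamtsl genes and 4 Timp genes. Each of 8-week-old female BALB/c mice received 100000 AB12 cells into the peritoneum, and tumor tissue was sequenced from separate mice in 17 libraries. Untreated tumors came from 3 mice at d6, 5 mice at d10 and 3 mice at d14. Tumors of mice given 200 µg of anti-CTLA4 (clone 9D9) into the peritoneum came from 3 mice at d10 and 3 mice at d14. The study describes mice treated early, with antibody at d6 and d10, as the source of treated d14 tumors, while the labels give a longer course for all samples alike. How many injections the treated d10 mice had received before collection is not given in the sources used here. The tumor cells of every group come from 1 cell line, and each library holds RNA of the whole tissue, so fewer cells of a type and less RNA per cell cannot be told apart.

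Matrix metalloproteinases are zinc-dependent proteases that are secreted or held at the cell surface, mostly as inactive proenzymes, and that cleave collagens, elastin, proteoglycans, cytokines and one another. TIMP proteins bind their active sites and block them, while ADAMTS proteases cleave proteoglycans and the ends of procollagens, and ADAMTS-like proteins share their ancillary domains but lack the protease domain. In tumors these genes are expressed by cancer cells, fibroblasts and infiltrating leukocytes, so that an mRNA level in whole tissue is a sum over all of them and says nothing of proenzyme activation.

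Total counts lay between 46371577 and 96759833 per library. On levels of 273 pseudogenes and small RNA genes the libraries fell into 3 sets. The d6 tumors shared a set with untreated d10 replicates 1 to 3, untreated d10 replicates 4 and 5 shared another with the treated d10 tumors, and all d14 tumors formed the last. In a cut into 2 sets instead, the d14 tumors joined the set of untreated d10 replicates 4 and 5. The treatment comparison at d14 therefore lies within 1 set, and comparisons with untreated d10 tumors are also given for each part of that group. Mesothelial markers, such as Msln and Krt19, were expressed in every group, with a summed level of 1878 to 4036 CPM (counts scaled to library size with TMM factors), and no marker of that list was at 0. Pancreas acinar markers summed to 2760.4, 3.79 and 939 CPM in treated d14 replicates 1, 2 and 3, and to at most 2.29 CPM in every other library.

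**Figure D1:**
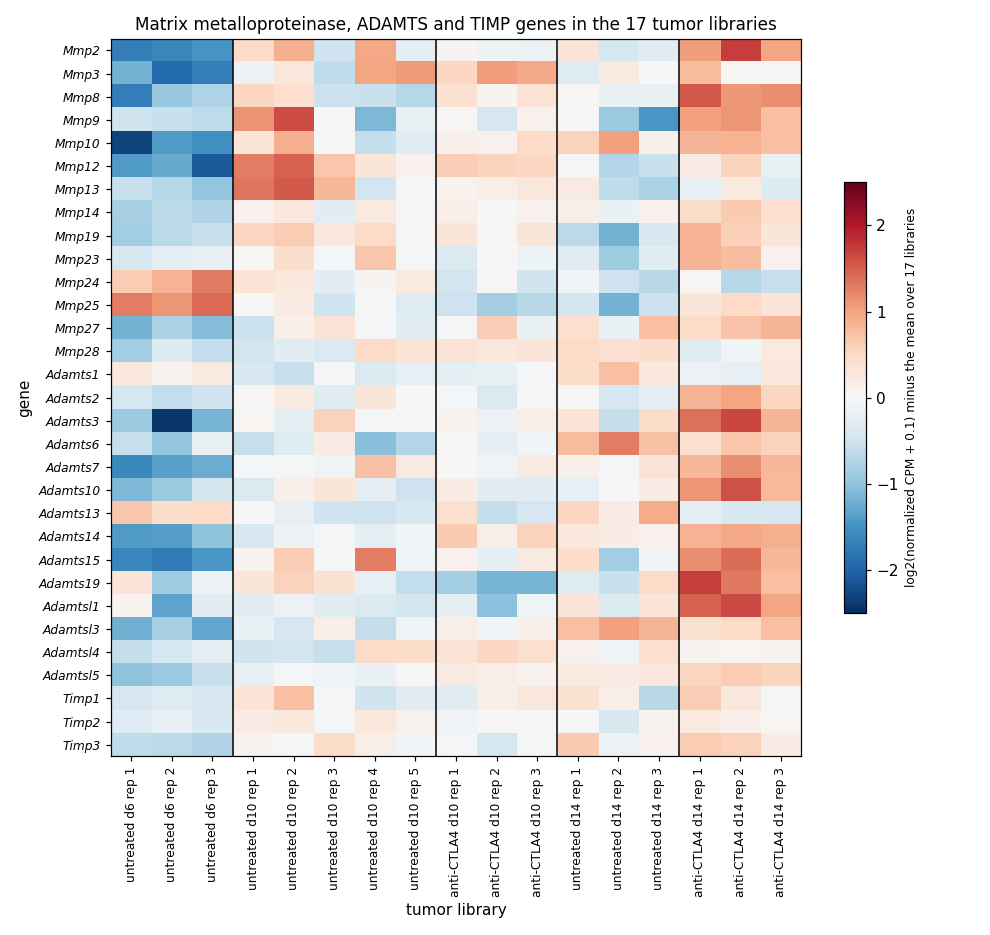
Each row is a gene, each column a tumor library, and the color gives log2(normalized CPM + 0.1) minus the gene's mean over the 17 libraries (red higher, blue lower); black lines separate the groups. The d6 tumors are blue for Mmp2, Mmp3, Mmp10 and Mmp12 and red for Mmp25, and the treated d14 tumors are red for Mmp8, Adamts3, Adamts10 and Adamtsl1.

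Normalized CPM were divided by the length of all annotated exons of a gene, with overlaps counted once, when levels of different genes were compared. Ranks, sums and ratios on this scale depend on that length, and which transcripts the tumors held was not tested. On this scale Timp1 had the highest mean over the 17 libraries (161 CPM per kb), followed by Timp2 (89.6), Mmp12 (65.9), Mmp13 (51.7), Mmp14 (36.8), Mmp9 (36.4), Timp3 (24.1), Adamts1 (20.8), Mmp19 (19.7) and Adamtsl4 (8.39). The genes Mmp9, Mmp12, Mmp13 and Mmp14 together held between 70.5% and 86.9% of the summed Mmp level of a library (median 77.7%). These are gelatinase B, macrophage elastase, collagenase-3 and the membrane-bound MT1-MMP, which activates the proenzyme of MMP2. At the other end, Mmp20, the enamel protease, had no count in any library. Together with Mmp20, the genes Mmp1b, Mmp7, Mmp16, Mmp21, Adamts16, Adamts17, Adamts18, Adamtsl2 and Timp4 were too low to be tested in any comparison, and Adamts19 was too low in both comparisons with d6.

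Of the 22 Mmp genes, 9 lie side by side on chromosome 9 of GRCm38, between positions 7272514 and 7699585, in the order Mmp13, Mmp12, Mmp1b, Mmp3, Mmp10, Mmp8, Mmp27, Mmp20 and Mmp7. The promoters of 4 of them are shown because these are the cluster genes that both rose between d6 and d10, as described after the sequences, and held the AP-1 motif. The fifth cluster gene that rose, Mmp27, did not hold it. RefSeq sequences of GRCm38.p6 were searched over the 250 bases before each transcription start for the AP-1 motif TGAGTCA on both strands. An entry was matched for 35 of the 50 members, and 6 of them held the motif (17.1%), against 5.16% of the 27025 genes in the RefSeq table. All 6 were genes of that cluster, namely Mmp1b, Mmp3, Mmp7, Mmp10, Mmp12 and Mmp13, while Mmp8, Mmp20 and Mmp27 did not hold these letters in this window. Mmp1b and Mmp7 were too low to be tested for a rise. On both strands, the TATA letters TATAAA were in 9 of the 35 (25.7%, against 14.3% of all genes in the table) and the PEA3 letters AGGAAG in 13 (37.1%, against 32.3%). A match describes the letters only. In the windows below, all on the plus strand and written from 5′ to 3′, capitals mark the motif, which begins 46 bases before the start in Mmp3, 63 in Mmp10, 44 in Mmp12 and 35 in Mmp13, where it lies on the minus strand. For Mmp12, with 2 RefSeq starts, the window that holds the motif is given. The first bases after the RefSeq start of Mmp10 were in no Gencode vM21 transcript of that gene.
Mmp3 (chr9:7445572-7445821): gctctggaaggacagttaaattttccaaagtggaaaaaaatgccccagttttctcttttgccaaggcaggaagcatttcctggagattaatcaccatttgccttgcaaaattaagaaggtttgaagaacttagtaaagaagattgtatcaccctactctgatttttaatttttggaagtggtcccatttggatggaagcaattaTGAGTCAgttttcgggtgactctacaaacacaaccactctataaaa
Mmp10 (chr9:7502092-7502341): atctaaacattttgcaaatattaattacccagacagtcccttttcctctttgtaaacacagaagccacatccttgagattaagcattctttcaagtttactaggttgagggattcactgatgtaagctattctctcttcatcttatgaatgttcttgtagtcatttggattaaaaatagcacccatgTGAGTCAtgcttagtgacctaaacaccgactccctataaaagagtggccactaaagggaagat
Mmp12 (chr9:7347124-7347373): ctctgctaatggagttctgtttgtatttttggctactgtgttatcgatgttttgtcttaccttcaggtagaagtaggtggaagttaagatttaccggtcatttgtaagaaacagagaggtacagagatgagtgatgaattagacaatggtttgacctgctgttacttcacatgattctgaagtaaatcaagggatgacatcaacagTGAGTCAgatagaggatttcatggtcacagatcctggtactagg
Mmp13 (chr9:7272264-7272513): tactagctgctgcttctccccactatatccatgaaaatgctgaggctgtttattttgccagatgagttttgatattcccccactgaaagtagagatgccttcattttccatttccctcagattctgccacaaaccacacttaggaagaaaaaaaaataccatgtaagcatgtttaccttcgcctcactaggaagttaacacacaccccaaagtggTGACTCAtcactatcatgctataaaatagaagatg

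From d6 to d10, as untreated tumors passed from the early to the intermediate phase, 11 members rose and 2 fell among the 39 that could be tested. Over all tested genes 7.45% were called (4.79% higher and 2.66% lower), where a call needed both a fold change above 2 and, in edgeR's quasi-likelihood test, an adjusted p-value under 0.05. All members are protein coding, and 7.39% of the tested protein coding genes were called. The members that rose were Mmp2, Mmp3, Mmp10, Mmp12, Mmp13, Mmp19, Mmp27, Adamts3, Adamts7, Adamts14 and Adamts15, and those that fell were Mmp25 and Adamts13. The median log2 fold change of the tested members was 0.67, against 0.03 over all tested genes, and it was 1.07 for Mmp genes, 0.34 for Adamts genes, 0.59 (4 genes) for Adamtsl genes and 0.54 (3 genes) for Timp genes. Against d10 replicates 1 to 3, which lie in the library set of the d6 tumors, 14 members were called (8.78% of all tested genes). Against d10 replicates 4 and 5, in another set, 13 members were called (16.7% of all tested genes). The number was lowest without d6 replicate 3, at 8 members.

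Mmp12 encodes macrophage elastase, which cleaves elastin. Its normalized CPM were 149, 167 and 92.8 in the d6 tumors and 966, 1102, 643, 491 and 431 in d10 replicates 1 to 5. Each d10 tumor lay above every d6 tumor, a separation of the groups, in either direction, that 25 of the 39 tested members and 28.5% of all tested genes showed, and d10 replicates 1 to 3 lay above replicates 4 and 5. The log2 fold change was 2.44 (standard error 0.35, edgeR, adjusted p = 0.0019), with 2.75 (standard error 0.24) against replicates 1 to 3 and 1.77 (standard error 0.21) against replicates 4 and 5. Its exons overlap those of Mmp1b on the opposite strand by 157 bp, and Mmp1b had at most 2 counts in a library.

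Mmp13, a collagenase of fibrillar collagens, stood at 82.2, 74 and 60.9 CPM at d6 and at 305, 352, 216, 87.6 and 118 CPM at d10. The groups did not overlap, but d10 replicates 4 and 5 lay close to the d6 tumors. The rise was 1.60 on the log2 scale (standard error 0.43, edgeR, adjusted p = 0.030). It was 2.03 against d10 replicates 1 to 3 and 0.52 against replicates 4 and 5, below a fold change of 2, and the call was lost without any 1 of the d6 tumors or d10 replicate 1 or 2 (adjusted p from 0.056 to 0.12).

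The stromelysins Mmp3 and Mmp10 degrade proteoglycans and activate other proenzymes of the family. Mmp3 had 2.49, 1.45 and 1.68 CPM at d6 and 5.19, 7.09, 3.69, 11.6 and 12.1 CPM at d10, so here replicates 4 and 5 were the highest (log2 fold change 2.11, standard error 0.42, edgeR, adjusted p = 0.0090). Mmp10 was low, with 0.133 to 0.343 CPM at d6 and 0.666 to 2.07 CPM at d10 (2.21, standard error 0.47, adjusted p = 0.011). For both genes the groups did not overlap. The call of Mmp3 was lost without d6 replicate 3 (adjusted p = 0.051) and that of Mmp10 without d6 replicate 1 (adjusted p = 0.057).

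Mmp27, also in the cluster, rose from 0.222 to 0.323 CPM at d6 to 0.402 to 0.837 CPM at d10 (log2 fold change 1.23, standard error 0.34, edgeR, adjusted p = 0.032), a call that was lost without any 1 of the d6 tumors or d10 replicate 2 (adjusted p from 0.065 to 0.14). Mmp8, the neutrophil collagenase, was not called (1.07, standard error 0.38, adjusted p = 0.076). Against d10 replicates 1 to 3 it was called (1.36, standard error 0.32, adjusted p = 0.013), and against replicates 4 and 5 it was not (0.49, standard error 0.30, adjusted p = 0.21). Of the 9 genes of the chromosome 9 cluster, 6 were tested and 5 rose, with log2 fold changes of all 6 between 1.07 and 2.44 (median 1.85). Of the 11 tested Mmp genes elsewhere in the genome 2 rose and 1 fell, with a median of 0.67.

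Outside the cluster, Mmp2, gelatinase A, stood at 6.43, 6.89 and 7.64 CPM at d6 and at 29.9, 40.1, 15.3, 42.3 and 18.5 CPM at d10. The groups were well apart, and the rise of 2.08 on the log2 scale (standard error 0.34, edgeR, adjusted p = 0.0033) was nearly the same against d10 replicates 1 to 3 (2.05) and against replicates 4 and 5 (2.13). Mmp19, a basement membrane protease, rose from 34.9, 40.2 and 43.9 CPM to 93.1, 100.2, 77.4, 89.9 and 65.7 CPM (1.13, standard error 0.15, adjusted p = 0.0011). Every d10 tumor lay above every d6 tumor, and against replicates 4 and 5 the change was 0.98, just under a fold change of 2. Part of the exons of Mmp19 (22.3% of their length) overlaps Tmem198b on the opposite strand, and whether counting used strand is not stated.

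Mmp9, gelatinase B, did not follow Mmp2. It had 76.5, 73.8 and 69.6 CPM at d6 and 236, 333, 108, 49.6 and 95.5 CPM at d10, so the d10 tumors spread over the d6 level (1.19, standard error 0.53, edgeR, adjusted p = 0.15). Against d10 replicates 1 to 3 the change was 1.64 (standard error 0.31, adjusted p = 0.0042), and against replicates 4 and 5 it was 0.00 (standard error 0.23, adjusted p = 1.0).

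Of the 6 tested membrane-bound proteases, 1 was called, as lower, and Mmp14, Mmp15, Mmp17, Mmp23 and Mmp24 were not. Mmp25, a protease anchored by a lipid tail and known from neutrophils, fell from 14.4, 12.8 and 15.8 CPM at d6 to 5.85, 6.80, 4.13, 5.87 and 4.67 CPM at d10, without overlap (log2 fold change -1.37, standard error 0.17, edgeR, adjusted p = 0.00096). Mmp14 went from 118 to 132 CPM to 176 to 252 CPM, also without overlap, but the change of 0.87 on the log2 scale (standard error 0.13, adjusted p = 0.0020) stayed under a fold change of 2. Mmp24 changed by -0.88 (standard error 0.26, adjusted p = 0.044).

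**Figure D2:**
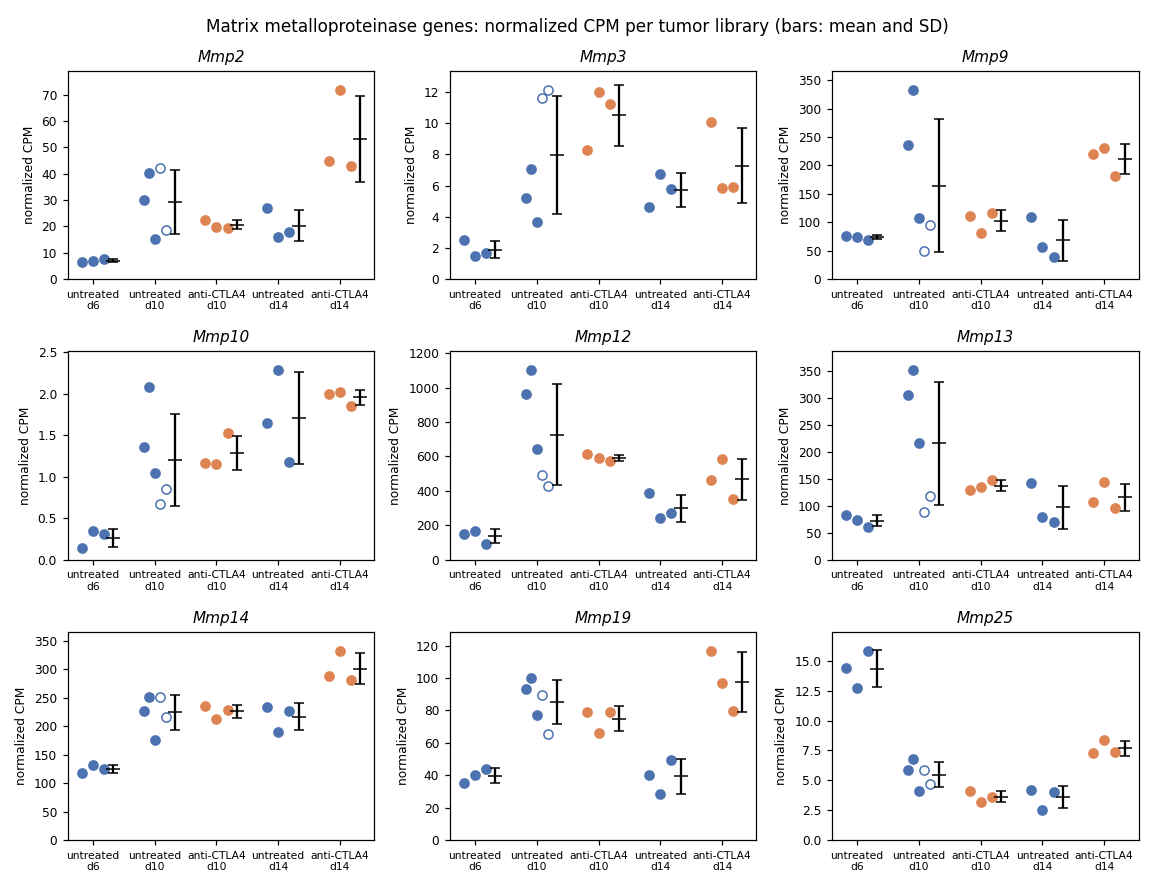
Points are single tumors, with normalized CPM on the vertical axis (from 0) and the 5 groups on the horizontal axis; open circles are untreated d10 replicates 4 and 5, and black bars give the mean and SD of each group. Mmp12 and Mmp13 are highest in d10 replicates 1 to 3, and Mmp2, Mmp9, Mmp14, Mmp19 and Mmp25 are higher in the 3 treated d14 tumors than in the 3 untreated d14 tumors.

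Among the ADAMTS genes, Adamts15, an aggrecan- and versican-cleaving protease, rose from 1.29, 1.17 and 1.46 CPM at d6 to 4.40, 6.60, 4.21, 10.3 and 3.91 CPM at d10 (log2 fold change 2.19, standard error 0.35, edgeR, adjusted p = 0.0032). Adamts7, which cleaves cartilage oligomeric matrix protein, rose from 1.67, 2.02 and 2.19 CPM to between 4.91 and 8.91 CPM (1.66, standard error 0.24, adjusted p = 0.0020). In both genes all d10 tumors lay above all d6 tumors. The procollagen N-proteinases, which remove the amino-terminal ends of fibrillar procollagens, are encoded by Adamts2, Adamts3 and Adamts14. Adamts14 rose from 4.03 to 5.37 CPM to 8.25 to 10.5 CPM (1.13, standard error 0.16, adjusted p = 0.0019), and Adamts3 from 0.161 to 0.645 CPM to 1.08 to 2 CPM (1.67, standard error 0.42, adjusted p = 0.025). The call of Adamts3 was lost without d6 replicate 2 (adjusted p = 0.052) or 3 (adjusted p = 0.071). Adamts2 changed by 0.61 (standard error 0.14, adjusted p = 0.015), under a fold change of 2.

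Adamts13, which cleaves von Willebrand factor, fell from 0.343 to 0.423 CPM to 0.129 to 0.227 CPM (log2 fold change -1.17, standard error 0.32, edgeR, adjusted p = 0.031). Its counts never exceeded 19 at d6, and the call was lost without any 1 of the d6 tumors or d10 replicate 2, 4 or 5 (adjusted p from 0.052 to 0.14) and against replicates 1 to 3 (adjusted p = 0.050). Adamts1, the most highly expressed ADAMTS gene per kb, had 113 to 131 CPM at d6 and 73.3 to 105 CPM at d10 (-0.47, standard error 0.13, adjusted p = 0.033), without overlap and under a fold change of 2.

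Timp1, Timp2 and Timp3 were not called by edgeR in this comparison, where 2 of the 3 had an adjusted p-value below 0.05 as well as an unadjusted one, and DESeq2 called 0 of the 3. Timp3, the inhibitor bound to the matrix, had 121, 118 and 112 CPM at d6 and 201, 183, 261, 208 and 179 CPM at d10 (log2 fold change 0.85, standard error 0.14, edgeR, adjusted p = 0.0032). Timp2, which also takes part in the activation of proMMP2 by MMP14, had 278, 301 and 266 CPM at d6 and 397, 416, 339, 418 and 371 CPM at d10 (0.49, standard error 0.10, adjusted p = 0.0099). Neither gene's groups overlapped, while those of Timp1 did (0.54, standard error 0.25, adjusted p = 0.16, with 102 to 109.8 CPM at d6 and 97 to 233 CPM at d10). Exons of Timp3 overlap those of Syn3 on the opposite strand over 21.3% of their length.

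Summed over genes, the 22 Mmp genes lay between 106 and 122 CPM per kb at d6 and between 215 and 484 CPM per kb at d10, and the 4 Timp genes between 199 and 215 and between 242 and 392 CPM per kb. In untreated tumors the ratio of the Mmp sum to the Timp sum averaged 0.56 at d6 (SD 0.027, n = 3), 1.06 at d10 (SD 0.19, n = 5) and 0.64 at d14 (SD 0.088, n = 3). Treated tumors averaged 0.94 at d10 (SD 0.12, n = 3) and 0.90 at d14 (SD 0.14, n = 3). Untreated d10 replicates 1 to 3 had ratios of 1.28, 1.24 and 1, and replicates 4 and 5 had 0.92 and 0.87. At d14 the ratio lay between 0.54 and 0.71 in untreated and between 0.76 and 1.04 in treated tumors, so these groups did not overlap. The same 2 groups were apart for 51.9% of all tested genes. The ratio is one of mRNA levels and is given without a test.

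**Figure D3:**
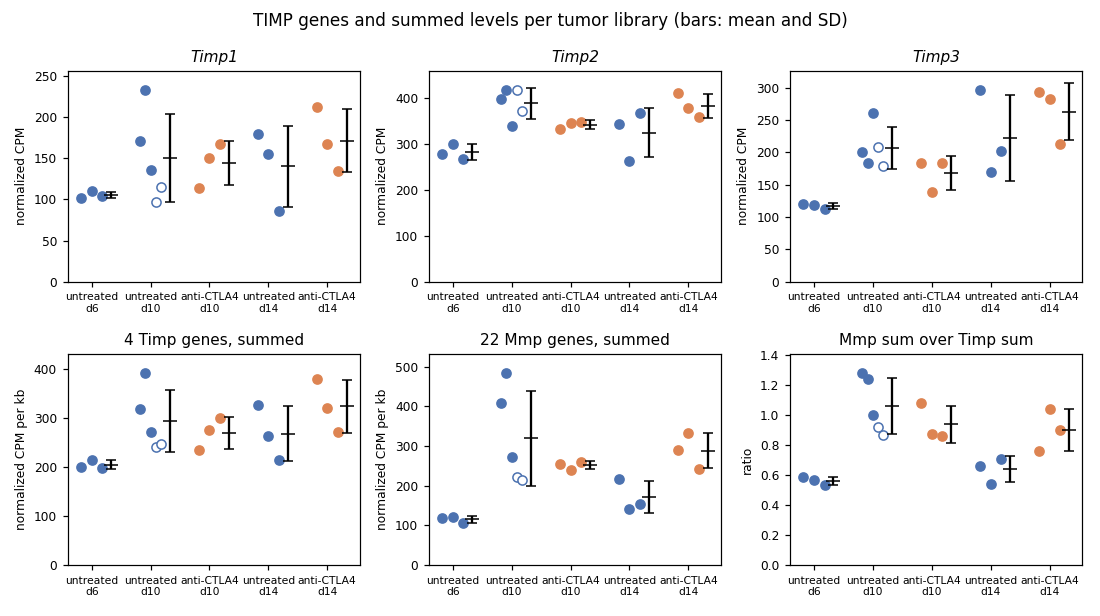
Points are single tumors by group, open circles are untreated d10 replicates 4 and 5, and black bars give the mean and SD; the upper panels show normalized CPM of Timp1, Timp2 and Timp3, and the lower panels show summed CPM per kb of the Timp genes, of the Mmp genes, and their ratio. The mean ratio is lowest at d6 (0.56), where the range of 0.53 to 0.59 overlaps that of untreated d14 tumors (0.54 to 0.71), and single values are highest in untreated d10 replicates 1 and 2 (1.28 and 1.24).

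Of the other genes of matrix proteolysis between d6 and d10, 3 of 5 cathepsins rose, namely Ctsd, Ctsk and Ctss (log2 fold changes 1.27, 1.48 and 1.4). Of 6 tested genes of plasminogen activation 1 rose (Serpine2, an inhibitor of plasminogen activators, 1.26), as did 1 of 6 cell surface regulators (Lrp1, an endocytic receptor for proteases, 1.43) and 1 of 10 sheddases and convertases (Adam8, 1.43). Among 18 matrix substrates and crosslinkers, Acan (1.16) and the collagen crosslinker Lox (1.08) rose, and no gene of these lists fell. Cell type markers moved as well. All 4 T cell markers rose, from a summed 27.3 to 30.3 CPM to 114 to 162 CPM, as did 2 of 7 fibroblast markers (206 to 259 CPM and 353 to 572 CPM). Neither direction was called for any of 6 macrophage markers (1073 to 1176 CPM and 1100.2 to 1694 CPM). An adjusted p-value below 0.05 in edgeR was given to 2 of them, Csf1r (means of 186 and 278 CPM) and Cd68 (120 and 196 CPM), both higher at d10. The means of Mrc1 and C1qa also went up, and those of Adgre1 (97.3 and 70.9 CPM) and Fcgr1 (90.4 and 59.1 CPM) went down. Among 8 neutrophil markers Retnlg fell and none rose (128 to 283 CPM and 74.8 to 288 CPM). Cspg4 rose and Acta2 fell among the 6 pericyte and smooth muscle markers, whose sum went from 130 to 160 CPM to 62.8 to 106 CPM. Emcn rose among 6 endothelial markers (61.8 to 80.2 CPM and 76.5 to 137 CPM). The part of these cell types in the changes of the protease genes was not tested.

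From d10 to d14, as untreated tumors advanced, 3 members rose and 2 fell among 40 tested, against 7.23% of all tested genes called (3.78% higher and 3.45% lower). Among the 14309 tested protein coding genes, 5% were called (221 higher and 494 lower). The members that rose were Adamts6, Adamts13 and Adamtsl3, and those that fell were Mmp12 and Mmp19. The median log2 fold change was -0.06 for the members and -0.04 for all tested genes, and 4 of the 17 tested Mmp genes had a positive value. In the cut into 3 library sets, the d14 tumors share a set with no untreated d10 tumor, so the set and the day cannot be told apart in this comparison. In the cut into 2 sets, the d14 tumors share a set with untreated d10 replicates 4 and 5 only. Without d14 replicate 2 a single member was called (Adamtsl3), and without d14 replicate 3 there were 3.

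Mmp12 fell to 386, 239 and 270.3 CPM at d14, below each of the 5 d10 tumors (log2 fold change -1.28, standard error 0.32, edgeR, adjusted p = 0.024). Groups were apart in this comparison for 10 of 40 tested members and 28.3% of all tested genes. The change was -1.59 against d10 replicates 1 to 3 and -0.64 against replicates 4 and 5 (adjusted p = 0.0501). The call was also lost without d10 replicate 1 (adjusted p = 0.052), d14 replicate 2 (adjusted p = 0.12) or d14 replicate 3 (adjusted p = 0.077). Mmp19 fell to 40.3, 28.2 and 49.3 CPM, likewise below each d10 tumor (-1.12, standard error 0.19, adjusted p = 0.0075), with -1.2 and -1.0 against the parts of the d10 group and -0.94, under a fold change of 2, without d14 replicate 2. Mmp9 (-1.26, standard error 0.59, adjusted p = 0.15) and Mmp13 (-1.15, standard error 0.45, adjusted p = 0.099) were not called. Against d10 replicates 1 to 3 both were (-1.72 and -1.58, with 11.3% of all tested genes called), and against replicates 4 and 5 their changes were -0.10 and -0.10 (10.4% of all tested genes called).

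Adamtsl3, an ADAMTS-like protein of the matrix, had 18.3, 15.5, 23.5, 13.9 and 19.5 CPM at d10 and 35.5, 42.8 and 38.0 CPM at d14. The groups did not overlap, and the rise was 1.09 on the log2 scale (standard error 0.17, edgeR, adjusted p = 0.0065). Adamts6, a relative of Adamts10 in sequence, rose from 7.32 to 17.5 CPM to 26.3, 37.1 and 25.4 CPM (1.4, standard error 0.26, adjusted p = 0.0095), a call lost without d14 replicate 2 (adjusted p = 0.056). Adamts13 rose back to 0.377, 0.271 and 0.524 CPM (1.24, standard error 0.33, adjusted p = 0.030), and its call was lost without d10 replicate 2 or 4 or any 1 of the d14 tumors (adjusted p from 0.050 to 0.12). Adamts1 changed by 0.80 (standard error 0.15, adjusted p = 0.0094), to 148, 179.9 and 129 CPM, under a fold change of 2. Of the Timp genes 0 of 3 were called by edgeR or DESeq2, and 0 had an unadjusted p-value below 0.05.

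Between d10 and d14, 1 of 5 cathepsins (Ctss, -1.5) and Serpine2 (-1.09) fell, and no gene of the other proteolysis lists was called. The fibroblast markers Dpt and Thy1, the macrophage markers Cd68 and C1qa and the T cell markers Cd3d and Cd8b1 fell, and the summed macrophage markers went from 1100.2 to 1694 CPM to 579.98 to 785 CPM. All 4 tested adipocyte markers fell (sums of 11.3 to 24.3 CPM and 1.22 to 4.35 CPM). Their part in the falls of Mmp12 and Mmp19 was not tested.

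Set directly against d6, the d14 tumors had 14 members higher and 2 lower among 39 tested, where 19% of all tested genes were called (10.2% higher and 8.81% lower). The share was 14.1% among tested protein coding genes. All d6 and all d14 tumors lie in different library sets, so set and day cannot be told apart here. Adamtsl3 differed most clearly, with 9.03, 11.8 and 8.40 CPM at d6 against 35.5 to 42.8 CPM (log2 fold change 2.01, standard error 0.14, edgeR, adjusted p = 3.4e-05). Mmp10 (2.71, standard error 0.40), Mmp27 (1.71, standard error 0.36), Mmp3 (1.63, standard error 0.26), Adamts15 (1.62, standard error 0.33), Adamts7 (1.62, standard error 0.19), Mmp2 (1.56, standard error 0.20) and Adamts14 (1.48, standard error 0.16) were also higher. In these genes, as in Adamts3 and Adamts6, no d14 tumor fell within the range of the d6 tumors, and groups were apart for 25 of 39 tested members and 61.1% of all tested genes. Mmp25 was lower, with 4.20, 2.54 and 4.04 CPM (-1.98, standard error 0.21, adjusted p = 0.00013), and so was Mmp24, a membrane-bound protease known from neurons (-1.54, standard error 0.32, adjusted p = 0.0038). Mmp28, or epilysin, rose from 9.23, 13.1 and 10.8 CPM to 23.4, 21.8 and 22.5 CPM (1.05, standard error 0.13, adjusted p = 0.00031), Adamtsl5 by 1.09 (standard error 0.14), Mmp8 by 1.04 (standard error 0.26) and Mmp12 by 1.15 (standard error 0.23). Mmp9 (-0.08, standard error 0.30), Mmp13 (0.44, standard error 0.25) and Mmp19 (0.00, standard error 0.18) were not called between these days. Calls of Mmp8, Mmp28 and Adamtsl5 were lost without d6 replicate 1 (0.79, 0.93 and 1.0), that of Mmp8 also without d14 replicate 1 (0.97), and that of Mmp12 without d6 replicate 3 or d14 replicate 1 (0.93 for each).

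Markers of other cells also differed between d6 and d14. The macrophage markers Adgre1, Fcgr1 and C1qa were lower (3 of 6, with list sums of 1073 to 1176 CPM at d6 and 579.98 to 785 CPM at d14), and so were all 4 tested adipocyte markers (12.8 to 37 CPM and 1.22 to 4.35 CPM). Among 6 pericyte and smooth muscle markers Acta2, Myh11 and Tagln were lower and Cspg4 was higher (130 to 160 CPM and 45 to 59.7 CPM). Of 8 neutrophil markers Cxcr2 and Retnlg were lower (128 to 283 CPM and 61.5 to 148 CPM), and of 4 T cell markers Cd3e and Cd8b1 were higher (27.3 to 30.3 CPM and 42.8 to 78.4 CPM). Of 7 fibroblast markers Pdgfra was higher and Lum and Dpt were lower (206 to 259 CPM and 192 to 330 CPM). Cdh5 and Emcn were higher among 6 endothelial markers (61.8 to 80.2 CPM and 88.0 to 107 CPM). Their part in the differences of the protease genes was not tested. Of the proteolysis lists, Adam8, Adam12 and Furin were higher and Pcsk5 lower among 10 sheddases and convertases, and Lrp1, Acan and Lox were higher.

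At d14, treated tumors had 12 members higher and 1 lower than untreated tumors among 40 tested, and 11.5% of all tested genes were called (9.07% higher and 2.4% lower). The share was 10.4% among tested protein coding genes. Higher in treated tumors were Mmp2, Mmp8, Mmp9, Mmp19, Mmp23, Mmp25, Adamts2, Adamts3, Adamts10, Adamts15, Adamts19 and Adamtsl1, and lower was Adamts13. The median log2 fold change of the members was 0.65, against 0.00 over all tested genes, with 0.68 for Mmp genes, 0.76 for Adamts genes, 0.16 for Adamtsl genes and 0.27 for Timp genes. All these tumors lie in 1 library set. With treated replicate 2 as the only treated tumor, the one with low acinar markers, 0 of 40 members and 2 of all tested genes (0.0104%) were called, with the lone tumor assumed to vary like the untreated ones. The log2 fold changes of the 13 members were then -1.33 for Adamts13 and between 1.24 and 1.97 for the others, with adjusted p-values from 0.096 to 0.25.

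The gelatinases were both higher. Mmp9 had 109, 56.4 and 39.5 CPM in untreated and 220.2, 232 and 181 CPM in treated d14 tumors, and each treated tumor lay above each untreated one (log2 fold change 1.66, standard error 0.34, edgeR, adjusted p = 0.012). Groups were apart, in either direction, for 28 of 40 tested members and 51.9% of all tested genes. Mmp2 had 27.1, 15.9 and 17.9 CPM and 44.7, 71.9 and 42.9 CPM, again without overlap (1.42, standard error 0.26, adjusted p = 0.0088). Mmp14, which activates proMMP2, had 234, 189 and 228 CPM and 289, 333 and 282 CPM, without overlap and under a fold change of 2 (0.51, standard error 0.11, adjusted p = 0.014).

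Among the collagenases, Mmp8 was higher in treated tumors, with 4.82, 4.19 and 4.16 CPM against 14.0, 10.1 and 10.6 CPM (log2 fold change 1.43, standard error 0.16, edgeR, adjusted p = 0.0044). Mmp13 was not called, with 143, 78.5 and 69.8 CPM against 107, 144 and 96.4 CPM (0.29, standard error 0.28, adjusted p = 0.46). Mmp12 also was not called (0.67, standard error 0.23, adjusted p = 0.056), and its treated range of 352 to 587 CPM overlapped the untreated range of 239 to 386 CPM. Of the 6 tested genes of the chromosome 9 cluster, 1 was higher, namely Mmp8, against 5 of the 11 tested Mmp genes elsewhere, with medians of 0.38 and 0.82.

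Mmp19 had 40.3, 28.2 and 49.3 CPM in untreated and 117, 96.8 and 79.8 CPM in treated tumors (log2 fold change 1.35, standard error 0.22, edgeR, adjusted p = 0.0066). Mmp25 had 4.20, 2.54 and 4.04 CPM and 7.26, 8.40 and 7.36 CPM (1.12, standard error 0.21, adjusted p = 0.0093). Mmp23, a protease held in the membrane by its amino-terminal end, had 7.94, 5.30 and 8.17 CPM and 17.9, 17 and 10.6 CPM (1.12, standard error 0.24, adjusted p = 0.014). In these 3 genes the groups did not overlap. Without untreated replicate 2 the changes of Mmp23 (0.93) and Mmp25 (0.91) fell under a fold change of 2, and without treated replicate 1 or 2 the call of Mmp23 was lost (adjusted p = 0.052 for each).

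All 3 genes of procollagen N-proteinases were higher in treated tumors by adjusted p-value, and 2 of them passed a fold change of 2. Adamts2 had 30.2, 22.6 and 26.1 CPM in untreated and 54.8, 60.4 and 43.5 CPM in treated tumors (log2 fold change 1.04, standard error 0.15, edgeR, adjusted p = 0.0058). Adamts3 had 0.825 to 1.82 CPM and 2.45 to 4.40 CPM (1.29, standard error 0.34, adjusted p = 0.026). Adamts14 had 11.8 to 13.1 CPM and 19.9 to 21.5 CPM (0.76, standard error 0.09, adjusted p = 0.0044). Without untreated replicate 2 or treated replicate 2 the change of Adamts2 was 0.93 and 0.97, under a fold change of 2, and the call of Adamts3 was lost without untreated replicate 1 or 2 or treated replicate 1 or 2 (changes from 1.0 to 1.41). Of the genes of fibrillar collagens, whose procollagens these enzymes process, Col1a1 was higher by 1.14 (standard error 0.26, adjusted p = 0.016) and Col1a2 by 1.15 (standard error 0.25, adjusted p = 0.014). Col3a1 (0.99, standard error 0.21, adjusted p = 0.013) and Col5a1 (0.82, standard error 0.14, adjusted p = 0.0075) stayed under a fold change of 2.

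Adamts10, a protease of fibrillin microfibrils, rose from 5.19, 5.97 and 6.94 CPM to 13, 18.3 and 10.6 CPM (log2 fold change 1.24, standard error 0.21, edgeR, adjusted p = 0.0073). Adamtsl1 rose from 2.88, 1.75 and 2.82 CPM to 6.51, 7.31 and 4.58 CPM (1.33, standard error 0.26, adjusted p = 0.010). Adamts15 rose from 5.69, 2.24 and 4.02 CPM to 9.5, 11.3 and 7.54 CPM (1.27, standard error 0.33, adjusted p = 0.023). None of the 3 had overlapping groups. The call of Adamts15 was lost without untreated replicate 2 (0.98) or treated replicate 1 (1.30, adjusted p = 0.063) or 2 (1.16, adjusted p = 0.075).

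Adamts19 and Adamts13 were close to the limit of detection. Adamts19 had 6, 4 and 21 counts in untreated and 65, 42 and 25 counts in treated d14 tumors (log2 fold change 1.97, standard error 0.53, edgeR, adjusted p = 0.027), and the call was lost without untreated replicate 1 or 2 or treated replicate 1 or 2 (adjusted p from 0.065 to 0.097). Adamts13 was lower, with 0.377, 0.271 and 0.524 CPM against 0.177, 0.152 and 0.144 CPM (-1.28, standard error 0.33, adjusted p = 0.024), and its call was lost without untreated replicate 1 or 3 or any 1 of the treated tumors (adjusted p from 0.063 to 0.095).

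The inhibitors did not pass the test. Timp1 had 179, 155 and 85.6 CPM in untreated and 212, 167 and 135 CPM in treated tumors (log2 fold change 0.33, standard error 0.27, edgeR, adjusted p = 0.39). Timp2 (0.27, standard error 0.13, adjusted p = 0.14) and Timp3 (0.27, standard error 0.22, adjusted p = 0.37) likewise had overlapping groups. DESeq2 called 0 of the 3 as well, and 0 had an unadjusted p-value below 0.05 in edgeR.

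**Figure D4:**
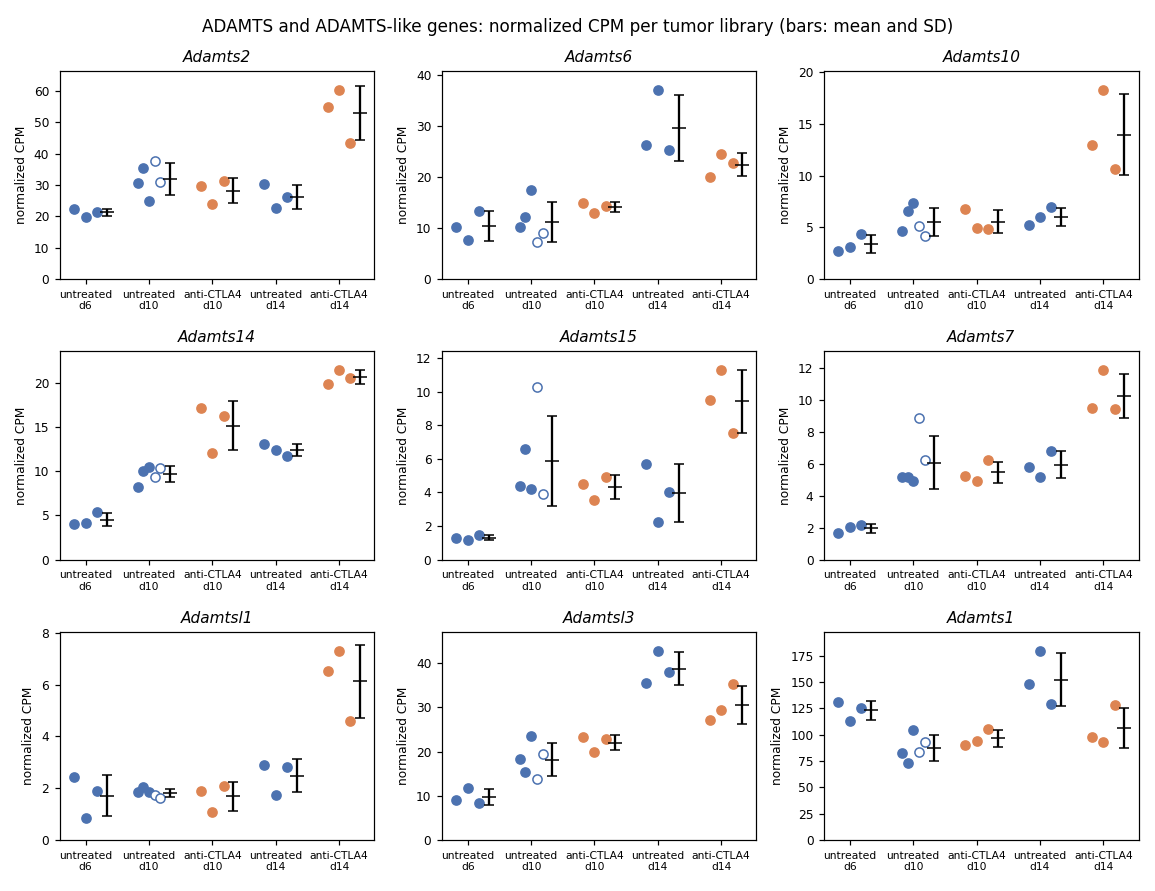
Points are single tumors by group, with normalized CPM on the vertical axis (from 0); open circles are untreated d10 replicates 4 and 5, and black bars give the mean and SD of each group. Adamts2, Adamts10 and Adamtsl1 are highest in the treated d14 tumors, and Adamtsl3 is highest in untreated d14 tumors (35.5 to 42.8 CPM).

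Among the other proteolysis genes at d14, 2 of 5 cathepsins (Ctsb, 1.01, and Ctss, 1.41), 2 of 10 sheddases and convertases (Adam19, 1.05, and Pcsk5, 1.36) and 3 of 18 matrix substrates and crosslinkers (Col1a1, Col1a2 and Col4a1, 1.02) were higher in treated tumors, and no gene of these lists was lower. Of the 6 tested genes of plasminogen activation and the 6 cell surface regulators edgeR called 0, with Serpine2 at 0.80 (adjusted p = 0.0062). Several marker lists differed in the same direction. Fibroblast markers (5 of 7 higher, among them Pdgfra and Dcn) summed to 192 to 330 CPM in untreated and 501 to 726 CPM in treated tumors. Macrophage markers (4 of 6 higher, Csf1r by 1.5) summed to 579.98 to 785 CPM and 1206 to 1474 CPM. Neutrophil markers (2 of 8 higher) summed to 61.5 to 148 CPM and 196 to 266 CPM, and T cell markers (2 of 4 higher) to 42.8 to 78.4 CPM and 123 to 133 CPM. Endothelial markers (0 of 6 called) summed to 88.0 to 107 CPM and 143.5 to 174 CPM. Myh11 was higher among 6 pericyte and smooth muscle markers, Plin1 among 4 tested adipocyte markers and Tnnt3 among 2 tested skeletal muscle markers. Lgr5 was lower among 4 tested intestine markers. Among 7 mesothelial markers Wt1 (means of 11.5 and 32.9 CPM) and Lrrn4 (5.63 and 25.2 CPM) were higher, and the mean of Upk3b also went up (5.75 and 15.6 CPM). The sum of the list went from 2765 to 2833 CPM to 1878 to 2096 CPM. Its most highly expressed genes had lower means, namely Krt8 (847 and 643 CPM), Krt18 (772 and 547), Krt19 (650 and 373) and Msln (508 and 382). Acinar markers were higher for 4 of the 4 tested, and in untreated d14 tumors none of Cpa1, Cel, Ctrb1 and Pnlip had a mean above 0.0155 CPM. The part of these cell types in the differences of the protease genes was not tested. The changes in treated replicate 2, with 3.79 CPM of acinar markers, are those given above.

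The study also set treated d14 tumors beside untreated d10 tumors. Here 6 members were higher and 0 lower among 40 tested. Called were 7.83% of all tested genes (5.34% higher and 2.49% lower) and 4.85% of tested protein coding genes. These 6 were Mmp8 (log2 fold change 1.33, standard error 0.31), Adamts3 (1.27, standard error 0.26), Adamts10 (1.29, standard error 0.23), Adamts14 (1.05, standard error 0.12), Adamts19 (1.62, standard error 0.47) and Adamtsl1 (1.71, standard error 0.18). Their adjusted p-values in edgeR ran from 0.0017 to 0.031. Of the 17 tested Mmp genes 1 was called. Mmp19 stood at 79.8 to 117 CPM in treated d14 tumors and at 65.7 to 100.2 CPM in untreated d10 tumors, with a difference of 0.16 (standard error 0.16, adjusted p = 0.47), and Mmp2 differed by 0.82 (standard error 0.33, adjusted p = 0.088). The calls of Adamts10 and Adamtsl1 held without any 1 tumor. That of Mmp8 was lost without treated d14 replicate 1 (adjusted p = 0.058) and that of Adamts3 without treated d14 replicate 2 (adjusted p = 0.051). Without untreated d10 replicate 1 Adamts14 fell under a fold change of 2 (0.98), and Adamts19 was lost without that tumor (adjusted p = 0.052) or without treated d14 replicate 1 (adjusted p = 0.14) or 2 (adjusted p = 0.099). With d10 replicates 4 and 5 alone 10 members were called, all higher (11.9% of all tested genes), Mmp9 among them (1.5), and with replicates 1 to 3 alone there were 8 (12.7%), of which 1, Mmp13, was lower in treated d14 tumors (-1.36). In the cut into 3 library sets this comparison lies across sets in either form, which cannot be told apart from day and treatment. In the cut into 2 sets, the form with d10 replicates 4 and 5 lies within 1 set.

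At d10, treated and untreated tumors differed in 0 of 40 tested members by edgeR, with 0.0174% of all tested genes and 0% of tested protein coding genes called. An unadjusted p-value below 0.05 was given to 5 members, and DESeq2 also called 0. The median log2 fold change was -0.06, against -0.01 over all tested genes. Mmp12 had 612, 589 and 572 CPM in treated tumors, within the untreated range of 431 to 1102 CPM (-0.30, standard error 0.29, adjusted p = 0.66). Mmp9, with 110.5, 81.2 and 117 CPM, also lay within the untreated range (-0.68, standard error 0.52, adjusted p = 0.57), as did Mmp13, with 129, 136 and 148 CPM (-0.65, standard error 0.40, adjusted p = 0.50).

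These values differed between the parts of the untreated d10 group. Against untreated replicates 4 and 5, which share a library set with the treated d10 tumors, 0 members were called (0.561% of all tested genes), and the signs of Mmp9 (0.50, standard error 0.26), Mmp12 (0.35, standard error 0.10) and Mmp13 (0.41, standard error 0.13) were turned. Against replicates 1 to 3, from another set, 4 members were lower in treated tumors (6.79% of all tested genes called, 4.85% as lower), namely Mmp9 (-1.12, standard error 0.32), Mmp13 (-1.07, standard error 0.15), Adamts5 (-1.05, standard error 0.17) and Adamts19, which had at most 2 counts in a treated d10 tumor. Adamts14 had 12.1 to 17.2 CPM in treated and 8.25 to 10.5 CPM in untreated d10 tumors, without overlap (0.64, standard error 0.14, adjusted p = 0.19), as for 4 of 40 tested members and 8.45% of all tested genes in this comparison.

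Whether the treatment difference itself differed between d10 and d14 was tested as an interaction in a fit of all 5 groups. In 12 of 40 tested members it was higher at d14 and in 1 it was lower, against 12.5% of all tested genes called (9.95% higher and 2.54% lower). The share was 12.6% among tested protein coding genes. The 12 were Mmp2, Mmp9, Mmp17, Mmp19, Mmp23, Mmp25, Adamts2, Adamts5, Adamts10, Adamts15, Adamts19 and Adamtsl1, and the other was Adamts13. For Mmp25 the treatment difference was -0.59 (standard error 0.19) at d10 and 1.12 (standard error 0.21) at d14, and the difference between them was 1.68 (standard error 0.27, edgeR, adjusted p = 0.0015). For Mmp19 it was -0.19 and 1.35 (1.51, standard error 0.26, adjusted p = 0.0018), and for Mmp2 -0.50 and 1.42 (1.90, standard error 0.44, adjusted p = 0.0073). These 3 interactions were also called with replicates 1 to 3 (17.4% of all tested genes) and with replicates 4 and 5 (13.3%) of the untreated d10 group, with values of 1.73 and 1.65 for Mmp25, 1.61 and 1.40 for Mmp19, and 1.87 and 1.97 for Mmp2.

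Adamts5, an aggrecanase, had 4.26, 3.11 and 4.07 CPM in treated and 3.76 to 9.07 CPM in untreated d10 tumors. At d14 it had 13.8, 12.3 and 8.80 CPM in treated and 7.29, 4.71 and 5.94 CPM in untreated tumors. Treated tumors overlapped untreated ones at d10 and lay above them at d14, and the interaction was 1.73 (standard error 0.40, edgeR, adjusted p = 0.0075). The interaction of Mmp9 was 2.31 (standard error 0.68, adjusted p = 0.025), with 2.77 when d10 replicates 1 to 3 were used and 1.15 (standard error 0.45, adjusted p = 0.076) when replicates 4 and 5 were used. The call of Mmp9 was also lost without treated d10 replicate 2, untreated d14 replicate 2 or 3, or treated d14 replicate 1 or 2 (adjusted p from 0.054 to 0.069). Other calls were lost as well. That of Mmp17 (1.06) fell under a fold change of 2 without untreated d10 replicate 4, treated d10 replicate 1, untreated d14 replicate 2 or treated d14 replicate 2 (0.93 to 0.98) and with untreated d10 replicates 1 to 3 only (0.99). Adamts10 was lost without treated d10 replicate 2 or 3, untreated d14 replicate 1 or treated d14 replicate 2 (adjusted p from 0.051 to 0.069) and with untreated d10 replicates 4 and 5 only (0.97). Adamts15 was lost without treated d10 replicate 2, untreated d14 replicate 2 or treated d14 replicate 2 (adjusted p from 0.053 to 0.056). Adamtsl1 was lost without treated d10 replicate 2, untreated d14 replicate 2 or treated d14 replicate 1 or 2 (adjusted p from 0.069 to 0.086) and with untreated d10 replicates 4 and 5 only (adjusted p = 0.069). Adamts13 was lost without untreated d10 replicate 2, treated d10 replicate 1, untreated d14 replicate 1 or 3 or any 1 of the treated d14 tumors (adjusted p from 0.053 to 0.18), and with untreated d10 replicates 1 to 3 only (adjusted p = 0.054). Without treated d14 replicate 2 the number of members called was 7.

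Of the matrix substrates and crosslinkers 10 of 18 were called in the interaction test, all higher, among them Col1a1 (1.4, standard error 0.30, edgeR, adjusted p = 0.0056), Col1a2 (1.48, standard error 0.28, adjusted p = 0.0029) and Col3a1 (1.47, standard error 0.24, adjusted p = 0.0016) but not Col5a1 (0.76), as were 2 of 5 cathepsins and 3 of 10 sheddases and convertases. Fibroblast markers (5 of 7) and macrophage markers (4 of 6) were called higher too. So were adipocyte (4 of 4 tested), T cell (3 of 4), neutrophil (3 of 8) and mesothelial markers (3 of 7). The same held for pericyte and smooth muscle (2 of 6), endothelial (1 of 6) and acinar markers (1 of 4 tested). Of 4 tested intestine markers Lgr5 was lower, and 0 of 3 tested skeletal muscle markers were called. The part of these cell types was not tested. With treated replicate 2 as the only treated d14 tumor, 9 of the 13 interactions were called, all of them among the 12 that were higher, and 6.3% of all tested genes were called. The lone tumor was assumed to vary like the other groups.

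**Figure D5:**
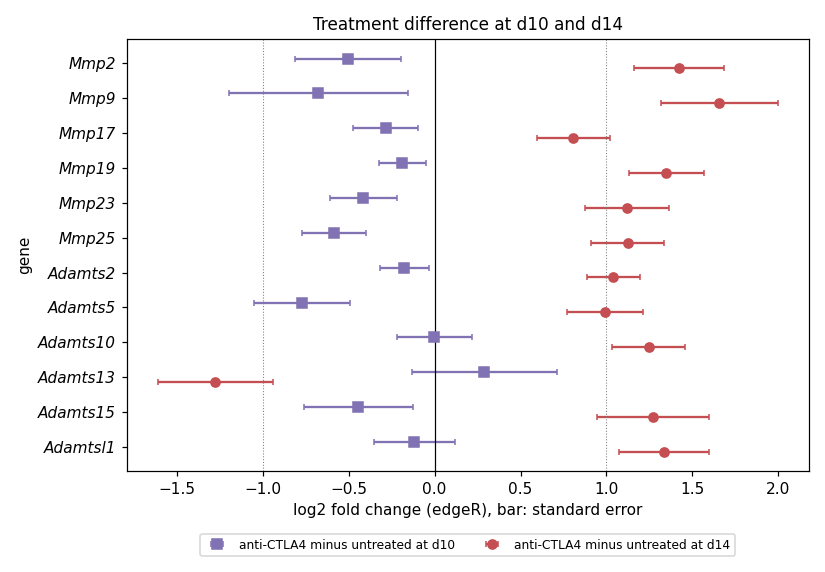
Squares give the log2 fold change between treated and untreated tumors at d10 and circles that at d14 for members called in the interaction test (Adamts19 is left out because its treated d10 counts were at most 2); bars are standard errors from edgeR, and dotted lines mark a fold change of 2. At d14 the values lie to the right of those at d10 for all genes shown except Adamts13.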

How the data were processed

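RNA of 17 AB12 tumors was measured with KAPA RNA HyperPrep libraries. The authors aligned reads to GRCm38 with TopHat2 (2.0.14), retained reads with a unique alignment and obtained gene counts from HTSeq with the Gencode vM21 annotation. The deposited values are raw counts per gene, without normalization. Whether counting used strand, and which library was sequenced on which instrument, is not given in the sources used here. The paper reports paired-end sequencing on different Illumina instruments, at different read lengths. It also reports that genes showing a batch effect between sequencing projects were taken out, and no such removal was made here. How the library sets relate to those projects was not tested. All 17 columns were mapped to samples by label, and 0 columns were left out.

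The members follow from a rule on gene symbols alone, but this gene family and the gene lists were chosen with earlier results of these data known. Named members were Timp1 to Timp4, Mmp2, Mmp9, Mmp14, every member called in a pairwise comparison, and the 10 highest per kb; others, such as Adamts5 and Mmp17, were named for the interaction test. Low genes were removed by filterByExpr of edgeR 4.0.16 in R 4.3.3, scaling used TMM factors, and tests were its quasi-likelihood test, with Benjamini-Hochberg adjustment over all tested genes and only the compared groups in the fit (all 5 for the interaction). A member was called at an adjusted p under 0.05 with a log2 fold change beyond 1 in either direction. Standard errors are the log2 fold change over the square root of F. The procedure was tested on data simulated for treated against untreated d14 tumors only, with changes larger than most of those reported here. That simulation does not cover comparisons across library sets or the interaction. CPM use TMM factors of all 17 libraries, and exon lengths are from Gencode vM21. Library sets come from clustering of 273 pseudogenes and small RNA genes with a mean of at least 1 CPM, and their number was chosen after seeing the data. Each of 22 replicate pairs differed far beyond sampling noise (chi-square per gene 18.5 to 268), so all were kept as replicates. The p-values weigh a difference between groups against the spread among tumors within groups. Both this spread and these pairs include untreated d10 tumors of different library sets. Where a group has at most 3 counts in every library, no fold is given.

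Alternatives were DESeq2 1.42.0, scaling to library size without TMM, no filter beyond 1 count, a strict filter of 10 counts in each library, protein coding genes only, another choice of groups in the fit, the replicate number as a block, each tumor left out in turn, and each part of the untreated d10 group. Fits without libraries of 100 CPM or more of summed acinar markers were added after seeing the data. Figures used matplotlib 3.10.9.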

Additional observations from a re-analysis of the deposited data

Results flagged for a closer look

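In untreated d10 tumors, replicate 3 had 2 normalized CPM of Adamts3, set apart from the nearest other tumor at 1.35 CPM. It was the only flag among 31 members examined in this group of 5 tumors, where chance flags about 1 in 20.

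The treatment difference on the log2 scale was larger at d14 than at d10 by 1.90 for Mmp2, 2.31 for Mmp9, 1.06 for Mmp17, 1.51 for Mmp19, 1.5 for Mmp23, 1.68 for Mmp25, 1.18 for Adamts2, 1.73 for Adamts5, 1.21 for Adamts10, 1.69 for Adamts15 and 1.42 for Adamtsl1, by edgeR's interaction test with adjusted p-values from 0.0015 to 0.030. For Adamts13 it was smaller by that test, with a value of -1.60 (adjusted p = 0.039), and that call was lost in 11 of 22 other fits (another tool, filter, scaling or set of tumors). Of 23 such fits, the call was lost in 6 for Mmp9 and Mmp17, in 5 for Adamts10 and Adamtsl1 and in 3 for Adamts15. For Adamts19 the interaction was past the threshold in edgeR's test (adjusted p = 0.0038), and no fold is given because its treated d10 tumors had 2, 0 and 0 counts.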

How the results depend on the processing

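Numbers of members called held within a factor of 1.5 under most alternatives, with these exceptions. Leaving out 1 tumor at a time gave 8 to 14 calls for d10 against d6 (13 in the full fit), 1 to 5 for d14 against d10 (5), 13 to 17 for d14 against d6 (16), 7 to 13 for treated against untreated tumors at d14 (13), 4 to 8 for treated d14 against untreated d10 (6), 0 at d10, and 7 to 16 for the interaction (13). With d10 replicates 4 and 5 only, treated d14 against untreated d10 gave 10. At d10 the replicate block gave 5 calls (1 higher, 4 lower) and d10 replicates 1 to 3 only gave 4. With acinar markers under 100 CPM, treated d14 against untreated d14 and against untreated d10 gave 0 calls each, from fits with 1 treated d14 tumor that called 0.0104% and 0.00528% of all tested genes. Between treated and untreated d10 tumors, Mmp9 (0.50), Mmp12 (0.35) and Mmp13 (0.41) changed sign against d10 replicates 4 and 5. The cause of these changes was not tested. Fits that leave out tumors also have fewer of them in a group.

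Same-numbered tumors did not pair. The correlation of their deviations lay between -0.30 and 0.16 over 18 pairs, 7 of them above 0.1, and no comparison had every pair above it, so the replicate block is given here only: it gave 14, 6, 16, 10, 8, 5 and 17 calls in the comparisons in the order above, in place of 13, 5, 16, 13, 6, 0 and 13. Of all tested genes it called 8.29%, 9%, 19%, 9.42%, 13.1%, 7.01% and 17.1%.

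Calls kept under every alternative planned were 6 of 13 for d10 against d6 (Mmp2, Mmp12, Mmp25, Adamts7, Adamts14 and Adamts15), 1 of 5 for d14 against d10 (Adamtsl3), 12 of 16 for d14 against d6, 6 of 13 for treatment at d14 (Mmp2, Mmp8, Mmp9, Mmp19, Adamts10 and Adamtsl1), 2 of 6 for treated d14 against untreated d10 (Adamts10 and Adamtsl1) and 7 of 13 for the interaction (Mmp2, Mmp19, Mmp23, Mmp25, Adamts2, Adamts5 and Adamts19). Library size without TMM moved the median of all genes by at most 0.15 (log2), for treated d14 against untreated d10, where it gave 8 calls. Depth limited Adamts13, Adamts19, Mmp10 and Mmp27, and the members not tested were not detectable at a level this filter accepts.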
